A study of Mus musculus with 6 samples.

Results

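Chemokines that draw skin-homing lymphocytes and dendritic cells, and the receptors for them, were followed here in the skin of LynDN and WT mice. The 8 genes were taken by symbol: the ligand Ccl20 with its receptor Ccr6, the ligands Ccl27a and Ccl28 with their receptor Ccr10, and the ligands Ccl17 and Ccl22 with their receptor Ccr4. All 8 had a value, each from 1 probe, among 18617 named genes. The set was selected on the measured ratios of Ccl20 and Ccl27a between the genotypes, to which the other 6 genes were added for their roles. The ratios of these 2 genes are therefore a description. No p is given for them, and their calls appear only in counts beside the share of all rows. Total RNA came from skin of 3 LynDN transgenic mice and 3 WT mice. Lyn is a tyrosine kinase of the Src family, and the transgene is called LynDeltaN in the title of the series. The sources used here give no promoter for it, and no strain, age or sex of the mice. Each of 3 mouse pairs was hybridised on 2 two-colour arrays with the dyes exchanged: LynDN mouse 1 with WT mouse 1 (pair 1), LynDN mouse 2 with WT mouse 3 (pair 2) and LynDN mouse 3 with WT mouse 2 (pair 3).

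Chemokines are small secreted proteins that guide leukocytes through G protein-coupled receptors. In skin, keratinocytes release CCL20, which attracts cells that carry CCR6, such as immature dendritic cells, B cells and T cells that make interleukin-17. CCL27 is made by keratinocytes of resting epidermis and attracts CCR10-bearing skin-homing T cells, and CCL28, made by many mucosal epithelia, uses the same receptor. CCL17 and CCL22 come mainly from dendritic cells and other cells of the immune system and act on CCR4, which skin-homing and regulatory T cells carry.

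The promoters of the genes with the largest ratios are shown because they carry short letter matches that can be set against all promoters, and because Ccl27a has a close copy. Sequences are from RefSeq (GRCm38.p6), and 7 of the 8 genes matched the table. Capitals in the Ccl20 line mark a match to GGGAA and CC with any 3 bases between them, a form of the motif bound by NF-kB. Capitals in the Ccl27 lines mark the base at which Ccl27a and Ccl27b differ. The Ccl20 stretch is chr1:83116616-83116765 (plus strand, the 150 bases before the start), that of Ccl27a is chr4:41770225-41770362 (minus strand, 138 bases) and that of Ccl27b is chr4:42655113-42655250 (plus strand, 138 bases).
Ccl20: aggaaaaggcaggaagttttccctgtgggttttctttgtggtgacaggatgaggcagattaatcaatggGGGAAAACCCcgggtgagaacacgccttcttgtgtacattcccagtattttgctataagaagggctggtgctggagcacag
Ccl27a: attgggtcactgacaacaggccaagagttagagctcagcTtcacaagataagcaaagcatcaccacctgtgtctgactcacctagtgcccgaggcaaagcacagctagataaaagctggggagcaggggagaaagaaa
Ccl27b: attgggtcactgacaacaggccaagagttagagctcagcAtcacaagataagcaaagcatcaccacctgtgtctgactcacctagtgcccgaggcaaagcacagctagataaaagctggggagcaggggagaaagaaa

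The search covered the 250 bases before each start on both strands. The NF-kB form was found in 1609 of 32536 distinct promoters (4.95%). Besides Ccl20, where it lay at bases -81 to -72 from the start, it was found before a start of Ccr6, at bases -80 to -71. TGANTCA, a form of the AP-1 motif, was searched as well. It overlapped no NF-kB match in these promoters and was found in 6.73% of promoters, among them those of Ccl27a at bases -77 to -71 and Ccr4 at bases -143 to -137. These matches are letters only, and binding was not measured. The printed stretches of Ccl27a and Ccl27b were identical at 137 of 138 bases and differed by T40A, counted from the 5′ end of the stretch with the base of Ccl27a first. No probe (0) was named Ccl27b, and the probe sequences were not used here, so the value named Ccl27a may hold signal of its copy.

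The sign of every ratio is as deposited, since the numerator is not stated, and so is the log base, taken as 2 here. Mice with this truncated form of Lyn are known for inflamed, psoriasis-like skin. With Krt16, a keratin of stressed epidermis, on the positive side (2.49 ± 0.16, SD, n = 3), that knowledge would put LynDN in the numerator, but the labels do not settle it, and if WT were the numerator all signs would turn together. Pair 1 stood apart from the other pairs. In pair 1 the log2 ratio was 3.50 for Eif2s3y and 1.24 for Kdm5d, both Y-linked, and -1.06 for Xist, made from the inactive X chromosome. For pairs 2 and 3, Eif2s3y lay at -0.00 and 0.03, Kdm5d at -0.05 and 0.13, and Xist at -0.09 and -0.14. Such opposite signs are what mice of different sex would give, so within pair 1 genotype and sex cannot be told apart. Pairs 2 and 3 had no such contrast. The part of sex in the other ratios of pair 1 was not tested. Across all rows the ratios of pair 1 correlated with those of pairs 2 and 3 at r = 0.350 and 0.386. Between pairs 2 and 3 r was 0.745, where rows are not independent. The ratios of the arrays within pair 1 correlated at only r = 0.0239, against 0.463 within pair 2 and 0.462 within pair 3. Such a ratio can hold a dye effect, which has opposite sign in the arrays of a pair. As deviations from the mean of their dye orientation, the arrays correlated at 0.391 in pair 1. In pairs 2 and 3 these deviations correlated at 0.182 and 0.126. The low r of pair 1 is therefore not read as poor reproduction. Since pair 1 stood apart, the mean of each of the 8 genes is also given without it. As the table holds ratios only, neither the level of a gene nor the presence of a cell type's markers could be read from it. In whole skin, fewer cells of a type and less RNA per cell cannot be told apart.

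**Figure D1:**
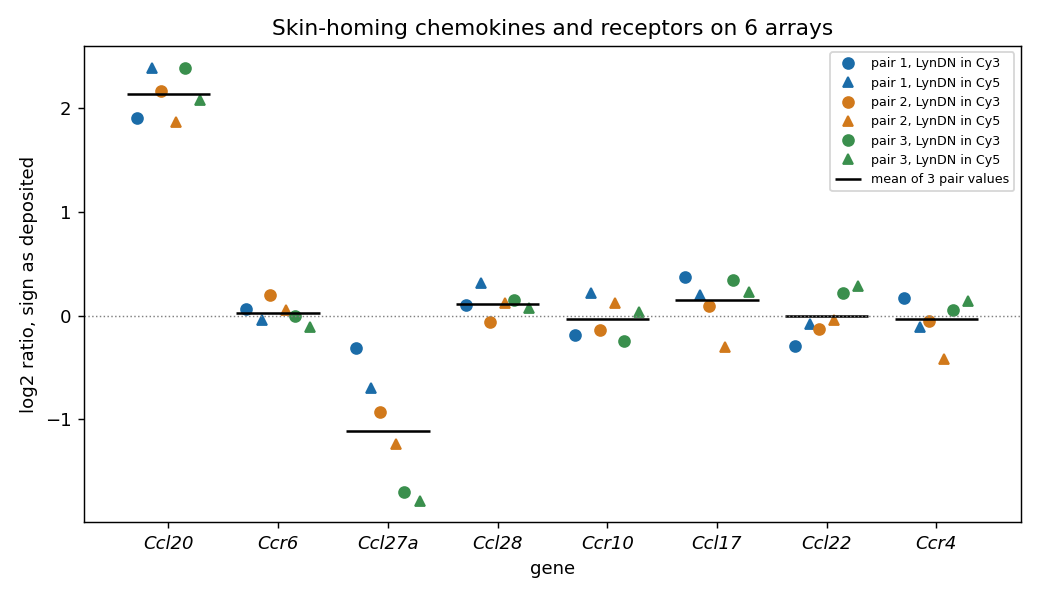
Log2 ratio (vertical axis, sign as deposited) of the 8 genes on each of the 6 arrays. Colours are mouse pairs, circles are arrays with LynDN in Cy3, triangles those with LynDN in Cy5, and the black bars are means of the 3 pair values. Ccl20 lies between 1.87 and 2.39 and Ccl27a between -1.78 and -0.32, while the other 6 genes lie between -0.42 and 0.37.

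Ccl20 was positive on every array, by a similar amount. Its log2 ratios were 1.90 and 2.39 for pair 1, 2.16 and 1.87 for pair 2, and 2.38 and 2.07 for pair 3, where the array with LynDN in Cy3 is given first here and below. The arrays of a pair thus differed more than the pairs did, whose means were 2.14, 2.01 and 2.23. The mean was 2.13 ± 0.11 (SD, n = 3), or 4.37-fold, and 2.12 without pair 1. The SD was 5.08% of the mean, the third lowest such share among the 137 rows of at least 2-fold, whose median was 51.6%. Of all named genes Ccl20 ranked 30 from the positive end.

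Its receptor Ccr6 did not share this ratio. For Ccr6 pair 1 gave 0.07 and -0.04, pair 2 gave 0.20 and 0.06, and pair 3 gave -0.00 and -0.11. It was positive on 3 arrays and negative on the other 3, with a mean of 0.03 ± 0.09 (SD, n = 3) and a 95% interval from limma of -0.12 to 0.18. The highest Ccr6 value on any array lay far below the lowest Ccl20 value.

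Ccl27a lay on the negative side on all 6 arrays, with a size that differed between pairs. Its log2 ratios were -0.32 and -0.70 for pair 1, -0.93 and -1.24 for pair 2, and -1.70 and -1.78 for pair 3. The array values of the 3 pairs did not overlap. The mean was -1.11 ± 0.62 (SD, n = 3), or 2.16-fold, and -1.41 without pair 1. Here the SD was 55.7% of the mean, near the median of the rows of at least 2-fold. Ccl27a ranked 16 from the negative end of the named genes, and 18 named genes had a mean ratio of -1 or less.

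Ccl28, the other ligand of Ccr10, had small ratios. Its values were 0.10 and 0.32 for pair 1, -0.06 and 0.12 for pair 2, and 0.15 and 0.07 for pair 3, with a mean of 0.12 ± 0.09 (SD, n = 3) and an interval of -0.04 to 0.27. It was positive on 5 arrays, by small amounts. A ratio as far from 0 as that of Ccl28 was found for 29.1% of named genes.

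Ccr10, the receptor of both, had a mean close to 0 and a sign that changed with the dyes. With LynDN in Cy3 it had -0.18, -0.14 and -0.24 in pairs 1, 2 and 3, and with LynDN in Cy5 it had 0.22, 0.13 and 0.03. The orientations did not overlap, and their means differed by 0.31, a gap that 18.8% of rows reached. The mean over pairs, in which a dye effect cancels, was -0.03 ± 0.06 (SD, n = 3), with an interval of -0.17 to 0.11. A sign that follows the orientation on all 6 arrays was found in 11.4% of rows, and 1 of the 8 genes was among them.

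**Figure D2:**
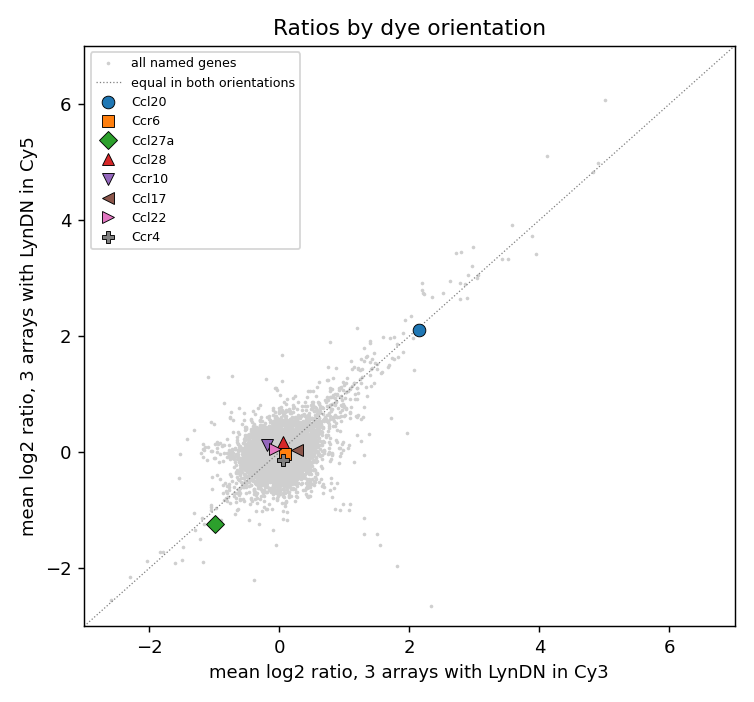
Mean log2 ratio over the 3 arrays with LynDN in Cy3 (horizontal axis) and over the 3 arrays with LynDN in Cy5 (vertical axis). Grey points are all named genes, and the dotted line marks equal values. Ccl20 (2.15 and 2.11) lies near the line and Ccl27a (-0.98 and -1.24) somewhat below it, while Ccr10 (-0.19 and 0.12) changes sign.

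The ligands of Ccr4 had small ratios of mixed sign. Ccl17 had 0.37 and 0.20 for pair 1, 0.09 and -0.31 for pair 2, and 0.34 and 0.22 for pair 3. It was positive on 5 arrays, and its pair values were 0.29, -0.11 and 0.28, with a mean of 0.15 ± 0.22 (SD, n = 3) and an interval of -0.09 to 0.40. Ccl22, which lies on the same chromosome with only Cx3cl1 between them among protein-coding genes, had -0.30 and -0.08 for pair 1, -0.13 and -0.05 for pair 2, and 0.21 and 0.29 for pair 3. Pairs 1 and 2 were thus negative and pair 3 positive, and the mean was -0.01 ± 0.23 (SD, n = 3), with an interval of -0.26 to 0.24. In pair 1 the ligands lay on opposite sides of 0, and in pair 3 both were positive.

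Their receptor Ccr4 had 0.16 and -0.11 for pair 1, -0.05 and -0.42 for pair 2, and 0.05 and 0.14 for pair 3. It was positive on 3 arrays and negative on 3, with a mean of -0.04 ± 0.17 (SD, n = 3) and an interval of -0.24 to 0.17. Ccl17 and Ccr4 both had their lowest value on the array of pair 2 with LynDN in Cy5, the 1 array whose label bears another date than the other 5. Without that array Ccl17 had a mean of 0.22 and Ccr4 of 0.03.

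In order of the mean ratio the genes ran from Ccl20 through Ccl17, Ccl28, Ccr6, Ccl22, Ccr10 and Ccr4 to Ccl27a. The 6 genes between the ends had means from -0.04 to 0.15 and pair values from -0.23 to 0.29. Among these 6 genes the pair values of neighbours in this order overlapped, while all those of Ccl28 lay above those of Ccr10. Those of Ccl20 and Ccl27a overlapped none of the others. Without pair 1 the means were 0.09 for Ccl17, 0.07 for Ccl28, 0.04 for Ccr6, 0.08 for Ccl22, -0.06 for Ccr10 and -0.07 for Ccr4. Ccl22 thus turned positive without pair 1, and Ccl17, Ccl28, Ccr10 and Ccr4 moved by more than 1.5 times. Over all 3 pairs the receptors lay within 0.04 of 0. Of the 8 genes 4 had a positive and 4 a negative mean, with a median of 0.01, beside a median of -0.01 over all rows tested.

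**Figure D3:**
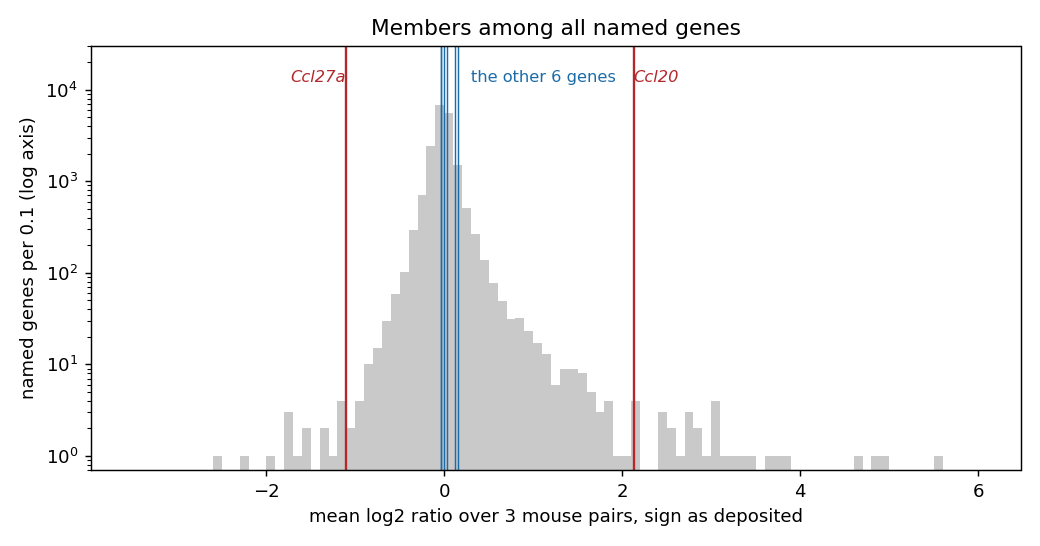
Number of named genes (vertical axis, log scale) by mean log2 ratio over the 3 mouse pairs (horizontal axis, bins of 0.1). Red lines mark Ccl20 at 2.13 and Ccl27a at -1.11, in the thin tails, and blue lines mark the other 6 genes, between -0.04 and 0.15, in the centre.

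In the limma fit of the 3 pair values, adjusted over 22879 rows at a threshold of 0.05, 1 of the 8 genes passed, Ccl20, beside 0.0175% of all rows. With the mouse pair as a block over the 6 arrays, 2 passed, Ccl20 on the positive and Ccl27a on the negative side, beside 1.06% of all rows. Without pair 1, 2 passed beside 4.88% of rows, without pair 2 none (0) beside 0.00874%, and without pair 3, 1 passed beside 0.0175%. After quantile normalization of the arrays 0 passed, beside 0.315%. A mean of at least 2-fold was found for 1 gene on the positive side, beside 0.52% of rows, and for 1 on the negative side, beside 0.0787%. A single sign on all 6 arrays was found for Ccl20 and Ccl27a, 2 of the 8 genes, beside 8.03% of rows. Since the set was built on these ratios, nothing is read from these counts. The 6 other genes, taken for their roles, did not pass, with limma adjusted p from 0.497 to 0.980 on the pair values and from 0.442 to 0.977 with the block, and 0 of them had an unadjusted p under 0.05. The lowest bound of their 95% intervals was -0.26 (Ccl22) and the highest was 0.40 (Ccl17). With 3 pairs, differences within the interval of each gene are not excluded.

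Other genes of the same pathways were taken as 6 lists with 76 measured genes. In limma on the pair values 0 of them passed, while 29 had an unadjusted p under 0.05, of which 25 were positive. The share of all rows under that unadjusted threshold was not worked out, so nothing is read from this count. With the block 5 passed positive, beside 0.603% of rows, and 1 negative, beside 0.459% of rows. On the arrays with LynDN in Cy3 alone 2 passed, beside 0.236% of rows. Cytokines, receptors and adaptors that induce Ccl20 in keratinocytes held most of the genes that passed with the block. Of 18 measured, 17 had a positive mean, beside 43.9% of all rows. The positive counts of the lists below stand beside this same share. With the block 4 passed, all positive, and the median was 0.36. Il1f6, the gene of IL-36 alpha, had 2.77 ± 0.68 (SD, n = 3). Nfkbiz, a co-regulator of NF-kB targets, had 1.58 ± 0.64, and the other IL-36 genes Il1f9 and Il1f8 had 1.84 ± 0.86 and 1.16 ± 0.49.

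Most inducers, 14 of 18, were lowest in pair 1, which Ccl20 was not. The share of all rows lowest in pair 1 was not worked out, so the count is a description. Medians of basal keratinocyte and macrophage markers were lowest in pair 1 too, while that of Langerhans and dendritic cell markers was not. The median of the inducers was 0.17 in pair 1, 0.49 in pair 2 and 0.53 in pair 3, and Nfkbiz had 0.84, 1.96 and 1.95. Ccl20 itself was as high in pair 1 as in the other pairs (2.14, 2.01 and 2.23). Il17a and Il22, which encode cytokines of CCR6-bearing T cells, had 0.05 ± 0.18 and 0.30 ± 0.16 (SD, n = 3) and did not pass with the block (limma adjusted p = 0.806 and 0.0947). In Il17a pair 3 was lowest. Both were named after their values were seen.

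Of 9 measured genes of interleukin-17-producing cells, 5 were positive and 0 passed in either fit, with a median of 0.04. Il23a, a subunit of the cytokine that sustains these cells, had 0.21 ± 0.21, the nuclear receptor gene Rora had -0.27 ± 0.21, Sox13, a regulator of gamma-delta T cells, had 0.11 ± 0.05, and the aryl hydrocarbon receptor gene Ahr had -0.13 ± 0.14 (SD, n = 3). T cell markers (12 measured of 14) had 4 positive and 8 negative members, with means from -0.32 to 0.36 and medians of -0.06, -0.05 and 0.03 in pairs 1, 2 and 3. Cd3e, a chain of the T cell receptor complex, had -0.16 ± 0.21, and Foxp3, which defines regulatory T cells, had 0.05 ± 0.06. Langerhans and dendritic cell markers (14 measured) had 10 positive members and a median of 0.08, with medians of 0.09, 0.03 and 0.08 by pair. Their means ranged from -0.20 to 0.49. Cd207, the langerin gene, had 0.18 ± 0.06 (SD, n = 3). The highest was Cd74, the invariant chain of MHC class II and named after its value was seen, with 0.08, 0.53 and 0.87 in pairs 1, 2 and 3. Of these marker lists 0 members passed in either fit.

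Regulators of type 2 responses and of Ccl17 and Ccl22 (8 measured) had 6 positive members and a median of 0.11. With the block 1 passed (positive calls: 0.603% of rows). That was Tslp, a keratinocyte cytokine that activates dendritic cells, with 0.84 ± 0.44 (SD, n = 3). Its pair values were 0.38, 0.89 and 1.26, whereas Ccl17 and Ccl22 were both negative in pair 2. Crlf2, a chain of the receptor for TSLP, had 0.23 ± 0.15, Il4ra had 0.15 ± 0.13 and the transcription factor gene Stat6 had 0.08 ± 0.12.

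Among 16 genes of skin-homing adhesion, 13 were positive, with a median of 0.07, and 0 passed in either fit. With pair 1 left out, Icam1, Sele and Selplg passed, beside 4.88% of all rows. Selplg, the selectin ligand, had 0.54 ± 0.45, P-selectin (Selp) had 0.31 ± 0.05, the adhesion molecule Vcam1 had -0.26 ± 0.08 and E-cadherin (Cdh1) had 0.20 ± 0.12 (SD, n = 3). For Selp pair 1 gave -0.28 and 0.93, which the SD between pairs leaves out.

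Other CC chemokines (15 measured) had 10 positive members and a median of 0.27. By pair the medians were -0.05, 0.30 and 0.39. None passed in either fit (0 of 15). With pair 1 left out, Ccl2, Ccl6, Ccl7, Ccl8, Ccl9, Ccl11 and Ccl12 passed, beside 4.88% of all rows. Ccl8 had 0.08 in pair 1 against 2.23 and 1.98 in the other pairs, and Ccl6 had 0.21, 0.93 and 0.77. Ccl11, the eosinophil attractant eotaxin, had 0.32 ± 0.19, and Ccl19, a ligand of CCR7, had 0.27 ± 0.13 (SD, n = 3). Ccl8 and Ccl6 were thus lowest in pair 1, where Ccl20 was not. Macrophage markers, 7 measured and all with a positive mean from 0.13 to 0.65, had medians of -0.02, 0.46 and 0.81 by pair, and their part in the chemokine ratios was not tested. Of 10 other CC chemokine receptors 6 were positive and 1 passed with the block, on the negative side (negative calls: 0.459% of rows). It was Ccrl2, an atypical receptor, with -0.99 ± 0.26 (SD, n = 3). Its arrays ranged from -1.82 to -1.37 with LynDN in Cy3 and from -0.69 to -0.09 with LynDN in Cy5. Ccr1, a receptor of monocytes and neutrophils, had 0.57 ± 0.46, and Ackr1 and Ccr3 had 0.15 ± 0.16 and 0.08 ± 0.07. With pair 1 left out, Ccr1 and Ccrl2 passed, beside 4.88% of all rows.

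**Figure D4:**
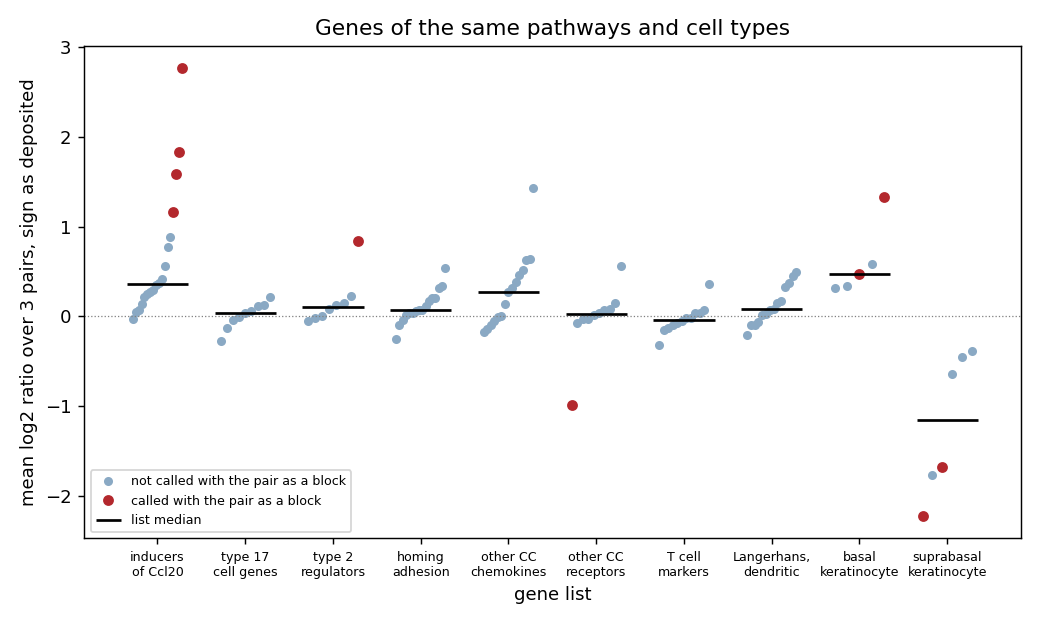
Mean log2 ratio over 3 pairs (vertical axis) of each measured gene in 6 pathway lists and 4 marker lists (horizontal axis). Red points passed with the pair as a block, blue points did not, and black bars are list medians. The inducers of Ccl20 (median 0.36) hold 4 red points, and T cell markers (median -0.04) hold none.

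Keratinocyte markers lay on opposite sides, as Ccl20 and Ccl27a did. Suprabasal markers (6 measured of 7) were all negative, with medians of -0.39, -1.25 and -1.64 in pairs 1, 2 and 3, beside -0.51, -1.08 and -1.74 for Ccl27a. Their means ranged from -2.23 to -0.39, 5 of 6 were negative on all 6 arrays (1 sign on all arrays: 8.03% of rows), and 2 passed with the block (negative calls: 0.459% of rows). The suprabasal keratin gene Krt10 had -0.46, -1.94 and -2.92 by pair. Basal markers (5 measured) were all positive on all 6 arrays, with means from 0.32 to 1.34 and medians of 0.28, 0.63 and 0.62 by pair, and 2 passed with the block (positive calls: 0.603% of rows). Krt14, a basal keratin gene, had 1.34 ± 0.54 (SD, n = 3). The part of these shifts in the ratios of Ccl20 and Ccl27a was not tested.

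**Figure D5:**
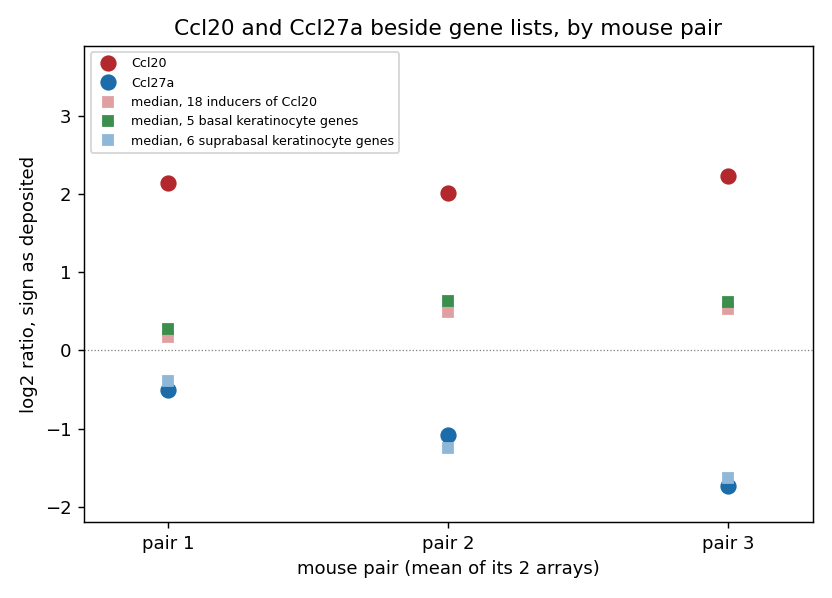
Log2 ratio (vertical axis) of Ccl20 and Ccl27a (circles) and medians of 3 gene lists (squares) in each mouse pair (horizontal axis). Ccl27a and the suprabasal keratinocyte median lie close together in each pair, from -0.51 and -0.39 in pair 1 to -1.74 and -1.64 in pair 3, while Ccl20 lies between 2.01 and 2.23. The single suprabasal markers, not drawn, spread widely, from -1.26 to -0.01 in pair 1 and from -2.92 to -0.59 in pair 3.

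Likeness over the 6 arrays was measured as the Euclidean distance between log2 ratios, as a description. Nearest to Ccl20 were Sprr2a1, a cornified envelope gene (distance 1.64), Krt16 (1.64), the EGFR ligand gene Epgn (1.72), the RNase gene Zc3h12a (1.95) and the beta-defensin gene Defb6 (1.98). Pair 1 was lowest in all 5, unlike in Ccl20. It was close to the other pairs in Krt16 (2.38, 2.43 and 2.68) and farther from them in Epgn (0.96, 1.83 and 2.24). Nearest to Ccl27a were Mfap4, a microfibril-associated gene (0.704), the acyltransferase gene Agpat5 (0.726), Npl (0.805), the connexin gene Gjb5 (0.833) and the keratin-associated protein gene Krtap14 (0.844). All 5 had their smallest negative value in pair 1 and their largest in pair 3, as Ccl27a had, with pair values from -0.33 to -1.44. They were picked for closeness on these same arrays, so this shared order follows largely from the choice, and nothing is read from it.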

How the data were processed

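The authors deposited 1 log ratio per probe and array for 25344 probes. For the scanner, background correction, normalization, numerator and log base nothing is given in these sources, and the deposited values were read as log2 ratios from their range (-6.34 to 6.16). Array medians lay between -0.02 and 0.00. RNA was extracted with Qiagen and labelled with Ambion reagents, per the labels' protocols. Spot intensities were not used here, so signal could not be set against background, and the number of arrays limits the precision.

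Probes were named through the platform annotation (21082 with 1 symbol, 30 with several, 4232 without) and averaged per symbol. Both arrays of a dye swap compare the same mice, per the labels, and were averaged to 3 pair values. Deviations of such arrays from the mean of their orientation correlated at 0.391, 0.182 and 0.126. With limma 3.58.1 (R 4.3.3, prior of 2.96 degrees of freedom) the mean was set against 0, with Benjamini-Hochberg adjustment over 22879 rows. The block fit used duplicateCorrelation (0.151) and a dye term. The fits were tested on simulated data.

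Members and lists were chosen with earlier results of these data known. Named were all members, 4 genes per list with the smallest p, 5 nearest to Ccl20 and Ccl27a, and Cd3e, Foxp3, Cd207, Krt14 and Krt10. Il17a, Il17f, Il22 and Cd74 were named after their values were seen. Of regulatory T cell markers (4 measured, median 0.04) and macrophage markers 0 passed. Alternatives covered the block, normalization, centring, probe averaging, dye orientation, the array of another date and leaving out pairs. P-values of the fit on pair values measure the spread between pairs of single mice. Those of the block fit also draw on the spread between arrays of the same pair.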

Additional observations from a re-analysis of the deposited data

How the results depend on the processing

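Of the 8 genes 1 passed in limma on the pair values (beside 0.0175% of rows). With the replicate block over 6 arrays 2 passed, Ccl27a being added (beside 1.06%). After quantile normalization 0 passed (beside 0.315%). Leaving out a pair gave 2 without pair 1 (beside 4.88%), 0 without pair 2 (beside 0.00874%) and 1 without pair 3 (beside 0.0175%). The count was 1 with median centring, with every probe as a row and with the median over probes. It was also 1 in either dye orientation alone and without the array of another date. With LynDN in Cy3 alone the share of rows was 0.236%, and for the other of these settings it was not worked out. Since the set was chosen on the ratios of Ccl20 and Ccl27a, nothing is read from these counts. Why they differed was not tested. Of the 76 pathway genes 0 passed on the pair values. The count was 6 with the replicate block (beside 1.06% of rows), 4 after quantile normalization (beside 0.315% of rows) and 2 with LynDN in Cy3 alone (beside 0.236%), and from 0 to 23 with a pair left out, where 23 passed without pair 1 (beside 4.88% of rows) and 0 without pair 2 or pair 3.

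Over 11 alternatives the mean log2 ratio of Ccl20 ran from 2.08 to 2.22 and that of Ccl27a from -1.41 to -0.79, each with 1 sign throughout. Ccl28 and Ccl17 kept their sign too. Ccr6 and Ccr10 kept it under 9 of 11, and Ccl22 and Ccr4 under 8 of 11. Ccr10 ran from -0.19 to 0.12, its values in the dye orientations.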
